A study of Mus musculus with 4 samples.

Results

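The TNF superfamily ligands are a family of small trimeric proteins, most of them anchored in the membrane, through which an activated T cell acts on its neighbours. TNF and lymphotoxin-α drive inflammation, lymphotoxin-β and LIGHT shape lymphoid tissue, CD40 ligand licenses B cells and dendritic cells, and FasL and TRAIL kill target cells. In CD4 T cells most of these genes are switched on by the T cell receptor through NFAT, NF-κB and AP-1 factors. The 10 ligand genes described here were *Tnf*, *Lta*, *Ltb*, *Cd40lg*, *Tnfsf8*, *Tnfsf9*, *Tnfsf10*, *Tnfsf11*, *Tnfsf14* and *Fasl*. They were taken by name from the 24369 genes listed for each library, and all 10 were found and passed the filter on low counts.

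Naïve splenic CD4 T cells from WT C57BL/6 mice were activated through CD3 and CD28 in the presence of human IL-2 (per the methods, where the labels repeat anti-CD28 in its place) and transduced after 2 days. EV RV cells received the MSCV-IRES-eGFP empty vector, and Tox RV cells the same vector with *Tox*, so that expression was driven by the viral promoter. On day 5 both groups were restimulated for 5 h with anti-CD3, which the methods describe as biotinylated antibody with streptavidin and the series text as anti-CD3 with anti-CD28, and were then sorted as CD4 GFP+. RNA-seq was done on 2 libraries per group, each group standing for 2 individual mice, and no ligand gene was itself manipulated. *Tox* stood at 11.7 and 5.73 CPM with empty vector and 121 and 99.9 CPM with Tox, as the labels say. CPM are counts scaled to library size by edgeR's TMM method, and pairs of values are given throughout for replicate 1 and then replicate 2.

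The libraries held 46989997 to 74548723 expected counts, which are RSEM's estimates of fragments per gene. The 45S pre-rRNA (*Rn45s*) took 24.7% of the counts of EV RV replicate 1 and 7.14% to 11.97% of the others. EV RV replicates also differed more from each other than Tox RV replicates did, with an SD across genes of the log2 difference of 0.68 against 0.44. In EV RV the median absolute log2 difference between replicates was 0.51 for the ligands and 0.38 for all genes tested. In Tox RV these medians were 0.30 and 0.17. The 8 CD4 T cell markers, among them *Cd3e* and *Cd4*, summed to 1828 to 2803 TPM (RSEM's level per transcript length) in each library. *Cd4* was at 174 to 250 TPM, while *Cd3e* was at 285 TPM in EV RV replicate 1 and 85.7 to 109 TPM in the others. CD8 T cell (*Cd8a*, *Cd8b1*), B cell and myeloid markers summed to at most 4.98, 2.28 and 2.66 TPM, and the B cell genes *Ms4a1* and *Pax5* had 0 counts in every library. The 6 NK cell markers summed to 108 and 120.2 TPM with empty vector and 112 and 68.0 TPM with Tox, carried by *Gzma* (16.7 to 62.2 TPM), *Eomes* (30.7 to 48.3 TPM), *Klrd1* (4.21 to 33.2 TPM) and *Klrk1* (2.44 to 19.9 TPM), which T cells can also express, while *Ncr1* had 0 counts in every library.

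All 10 ligands were transcribed in every library, and *Ltb* was the most abundant of them throughout. *Ltb*, which encodes lymphotoxin-β, was at 769.9 and 412 TPM with empty vector and 709 and 637 TPM with Tox. It made up 42.6% to 57.4% of the summed TPM of the 10 ligands. *Tnfsf8* (CD30 ligand) followed with a mean of 126 ± 28.1 TPM (SD, n = 4 libraries) and *Tnfsf11* (RANKL, the osteoclast differentiation factor) with 121 ± 11.98 TPM. Then came *Tnf* with 92.3 ± 16.1 TPM, *Lta* (lymphotoxin-α) with 84.5 ± 27.3 TPM, *Fasl* with 59.7 ± 14.8 TPM and *Tnfsf10* (TRAIL) with 39.6 ± 6.43 TPM. *Tnfsf14* (LIGHT) had 24.1 ± 11.0 TPM, *Cd40lg* 12.4 ± 2.80 TPM and *Tnfsf9* (the 4-1BB ligand) 6.01 ± 2.03 TPM. Of the neighbours in this order, only *Ltb* and *Tnfsf8*, and *Cd40lg* and *Tnfsf9*, had ranges over the 4 libraries that did not overlap. *Tnfsf8* exceeded *Tnfsf11* in EV RV replicate 1 alone, and the places of these genes were exchanged without that library.

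**Figure D1:**
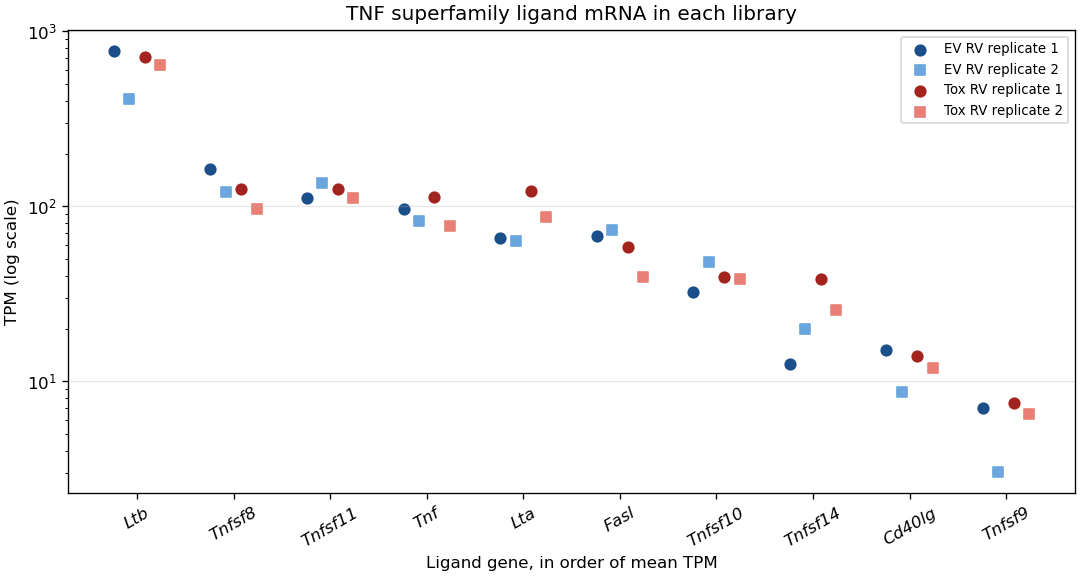
TPM of each of the 10 ligand genes (log axis), in order of the mean, with EV RV libraries in blue and Tox RV libraries in red and circles and squares for replicates 1 and 2. *Ltb* stands above all others at 412 to 769.9 TPM, and the red points of *Lta* and *Tnfsf14* lie above their blue points.

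To ask whether ectopic Tox altered these ligands, Tox RV libraries were set against EV RV libraries in edgeR's quasi-likelihood test across the 14143 genes with enough counts, with Benjamini-Hochberg adjustment. None of the 10 ligands passed an adjusted p of 0.05, and neither did any other gene (0 of 14143, 0%). Even *Tox* itself, at a log2 fold change of 3.68 (SE 0.38), had an edgeR adjusted p of 0.490. The lack of calls therefore does not show that the ligands were unchanged. DESeq2 called 22 of 18183 genes (0.121%), and 0 ligands. At an unadjusted p below 0.05 there were 2 ligands, *Lta* and *Tnfsf14*, both higher in Tox RV cells, where 3.62% of all genes passed, 1.07% as higher and 2.55% as lower. In 3 ligands (*Lta*, *Tnfsf9* and *Tnfsf14*) the Tox RV pair lay above the EV RV pair on the CPM scale, and in *Fasl* both lay below, against 18.6% and 17.4% of all genes tested (36.0% in either direction). The median log2 fold change of the 10 ligands was 0.21, with 8 higher and 2 lower, and that of all genes was 0.0036, with 50.4% higher and 49.6% lower.

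*Lta* was at 50.2 and 50.8 CPM with empty vector and 101 and 71.5 CPM with Tox. The EV RV libraries were nearly equal and the Tox RV libraries differed from each other, but the groups did not overlap. Lymphotoxin-α is secreted as a homotrimer that binds the TNF receptors, or held at the surface by lymphotoxin-β. The group means were 50.5 ± 0.373 CPM and 86.4 ± 21.1 CPM (SD, n = 2 each), a fold change of 1.71 (log2 fold change 0.77, standard error, SE, 0.22, unadjusted p = 0.0129 and edgeR adjusted p = 0.897). It ranked 107 of 14143 genes by unadjusted p. This log2 value became 0.50 if Tox RV replicate 1 was omitted and 1.01 if Tox RV replicate 2 was.

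*Tnfsf14* was at 12.9 and 21.5 CPM with empty vector and 43.1 and 28.7 CPM with Tox. The Tox RV pair was above the EV RV pair, and the replicates of each group differed from one another. LIGHT is a co-stimulatory ligand of HVEM and of the lymphotoxin-β receptor. The means were 17.2 ± 6.10 CPM and 35.9 ± 10.2 CPM (SD, n = 2 each), a fold change of 2.08 (log2 fold change 1.06, SE 0.32, edgeR adjusted p = 0.897). It was the only ligand past a 2-fold difference, which 0.841% of all genes passed in this direction and 2.54% in the other. It ranked 156 of 14143 genes (unadjusted p = 0.0182 in edgeR, adjusted p = 0.312 in DESeq2). The log2 fold change was 0.73 without EV RV replicate 1 and 0.73 without Tox RV replicate 1, below 2-fold in each case. Without EV RV replicate 2 it was 1.48 (edgeR adjusted p = 0.0528), in a fit where 29.7% of all genes had an unadjusted p below 0.05.

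The genes that encode the other chains sharing these receptors differed less. *Tnf*, next to *Lta* in the genome, was at 86.3 and 77.7 CPM with empty vector and 110.6 and 75.5 CPM with Tox, so the groups overlapped. Its log2 fold change was 0.18 (SE 0.23, edgeR adjusted p = 0.905), and -0.12 without Tox RV replicate 1. *Ltb* was at 448 and 252 CPM with empty vector and 449 and 403 CPM with Tox. EV RV replicate 2 was the low library, and the log2 fold change of 0.28 (SE 0.29) turned to -0.068 without it.

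Ratios within a library do not depend on how libraries are scaled. The TPM of *Lta* divided by that of *Tnf* was 0.684 and 0.770 with empty vector and 1.08 and 1.12 with Tox, so that *Tnf* was the more abundant of the pair in both EV RV libraries and *Lta* in both Tox RV libraries. The ratio of *Tnfsf14* to *Tnf* was 0.130 and 0.241 with empty vector and 0.340 and 0.331 with Tox. *Fasl* to *Tnf* went the other way, with 0.702 and 0.889 with empty vector and 0.518 and 0.507 with Tox. The ratio of *Ltb* to *Lta*, the chains of the surface lymphotoxin complex, was 11.7 and 6.50 with empty vector and 5.80 and 7.38 with Tox, with overlap. These ratios were picked after their values were seen and were not tested.

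**Figure D2:**
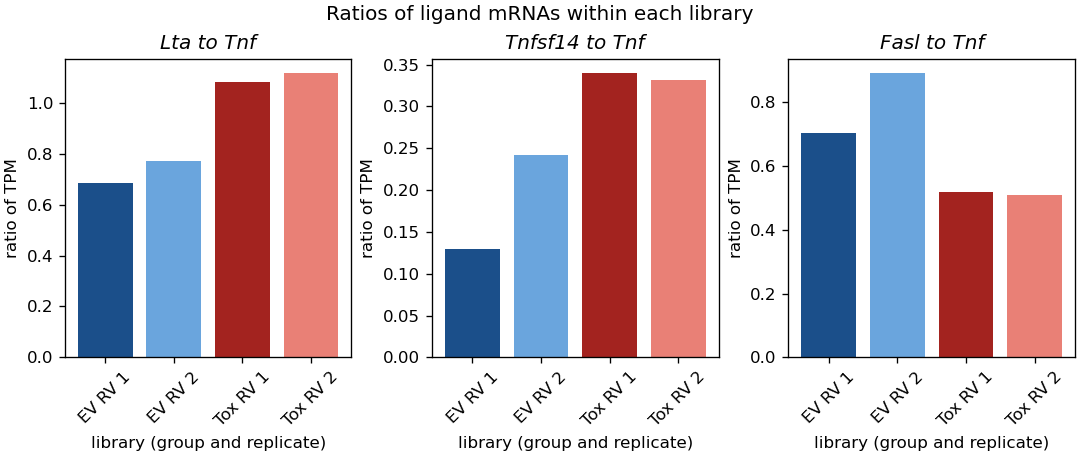
Ratios of TPM within each library (bars from 0) for *Lta*, *Tnfsf14* and *Fasl*, each divided by *Tnf*, in the 2 EV RV (blue) and 2 Tox RV (red) libraries. *Lta* to *Tnf* is below 1 in both EV RV libraries and at 1.08 and 1.12 in the Tox RV libraries.

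The death ligands are made on activation to limit T cell expansion and kill target cells. *Fasl* was at 72.0 and 82.0 CPM with empty vector and 68.1 and 45.4 CPM with Tox. The Tox RV pair lay below the EV RV pair, with Tox RV replicate 1 close to it. Its log2 fold change was -0.44 (SE 0.24, edgeR adjusted p = 0.897), and -0.17 without Tox RV replicate 2. NK cells, which the naïve CD4 isolation and the CD4 GFP+ sort would remove, also express *Fasl*, and the summed level of the 6 NK cell markers was 139 and 149.8 CPM with empty vector and 124 and 92.6 CPM with Tox. Most of this sum was *Eomes*, a factor of T cells too, at 79.8 and 108.6 CPM with empty vector and 72.2 and 71.2 CPM with Tox. Of the 5 NK markers tested 1 was higher and 4 lower, with *Ncr1* at 0 counts, and their part in the *Fasl* values was not tested. In such bulk samples fewer cells of a type and less RNA per cell cannot be told apart. *Tnfsf10* was at 93.0 and 145 CPM with empty vector and 123 and 119.8 CPM with Tox. The Tox RV values lay between those of EV RV, with a log2 fold change of 0.03 (SE 0.24).

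The remaining ligands act in T cell help and co-stimulation. *Tnfsf9* was at 4.53 and 2.06 CPM with empty vector and 5.28 and 4.57 CPM with Tox. The groups were separated on the CPM scale by a small margin and overlapped in TPM, where EV RV replicate 1 was at 7.0 and Tox RV replicate 2 at 6.50. The log2 fold change of 0.59 (SE 0.41, edgeR adjusted p = 0.897) was 1.25 without EV RV replicate 1 and 0.13 without EV RV replicate 2. It had the lowest count of any ligand, 157 in EV RV replicate 2.

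*Cd40lg*, the signal by which helper cells activate B cells, was at 9.88 and 6.004 CPM with empty vector and 10.01 and 8.58 CPM with Tox. EV RV replicate 1 lay between both Tox RV values (log2 fold change 0.23, SE 0.29). *Tnfsf8* was at 204 and 158 CPM with empty vector and 169 and 130.0 CPM with Tox, with overlap and a log2 fold change of -0.28 (SE 0.22). It was -0.085 without EV RV replicate 1, -0.44 without EV RV replicate 2, -0.48 without Tox RV replicate 1 and -0.096 without Tox RV replicate 2. *Tnfsf11* was at 139.8 and 179.9 CPM with empty vector and 171 and 152 CPM with Tox, all Tox RV values lying between the EV RV values (log2 fold change 0.02, SE 0.20). The adjusted p of these genes was 0.897 to 0.991 (edgeR).

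**Figure D3:**
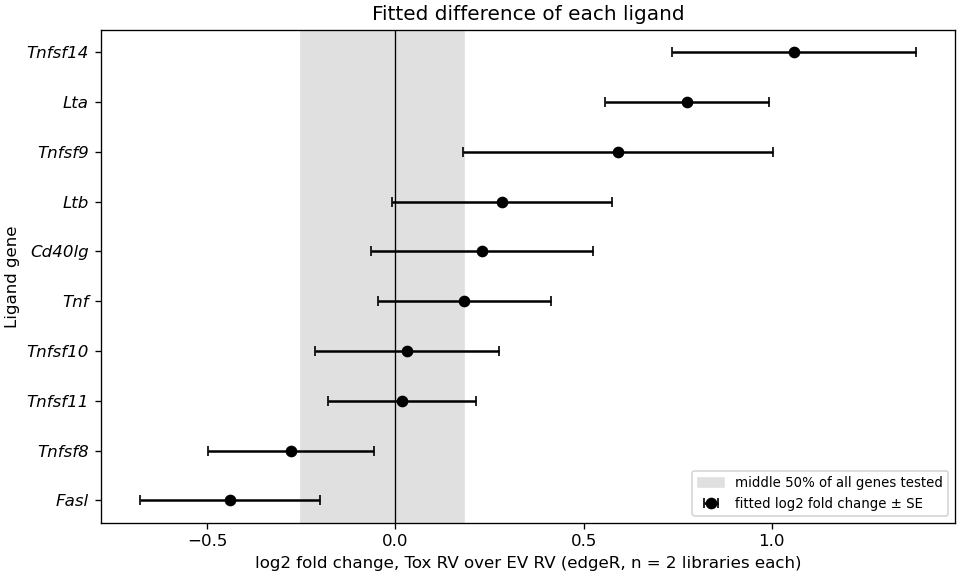
Fitted log2 fold change of each ligand in Tox RV over EV RV cells (points, with standard errors as bars), with the middle 50% of all 14143 genes shaded. *Tnfsf14* (1.06) and *Lta* (0.77) lie farthest to the right and *Fasl* (-0.44) farthest to the left.

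By position, 5 of the 10 ligand genes lie on chromosome 17, in a pair of groups (mm10, GENCODE). In the class III region of the MHC, *Ltb* (35194439 to 35196320, plus strand), *Tnf* (35199381 to 35202007, minus strand) and *Lta* (35203165 to 35205351, minus strand) follow one another with gaps of 3060 and 1157 bases. *Nfkbil1*, the next protein-coding gene beyond *Lta*, had a log2 fold change of 0.45 (SE 0.18), and *Lst1*, beyond *Ltb*, of 0.27 (SE 0.37). The second group holds *Tnfsf9* (57105325 to 57107757, plus strand), *Cd70* (57145997 to 57149777, minus strand) and *Tnfsf14* (57189492 to 57194177, minus strand). Beyond *Tnfsf14* lies *C3*, the complement component, at 3.25 and 7.97 CPM with empty vector and 15.3 and 12.5 CPM with Tox (log2 fold change 1.30, SE 0.43, edgeR adjusted p = 0.897). *Cd70*, between *Tnfsf9* and *Tnfsf14*, had a log2 fold change of -0.30 (SE 0.76). *Tubb4a*, beyond *Tnfsf9*, had a log2 fold change of -0.49 (SE 0.37), and its groups overlapped. All 3 ligands with Tox RV libraries above EV RV libraries are on chromosome 17, where 20.5% of the 655 genes tested had this arrangement, against 19.5% of the 11985 placed on other chromosomes.

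*Fasl* lies on chromosome 1 (161780689 to 161788495), *Tnfsf10* on chromosome 3 (27317028 to 27342427), *Tnfsf8* on chromosome 4 (63831308 to 63861347), *Tnfsf11* on chromosome 14 (78277445 to 78308043) and *Cd40lg* on the X chromosome (57212143 to 57224042). *Lta* and *Ltb* each overlap a microRNA gene on their own strand, *Tnfsf9* overlaps the noncoding RNA gene *Gm11110* on the other strand, and use of strand in counting was not stated, so reads there could not be told apart.

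The start-site sequences of *Lta*, *Tnfsf14* and *Fasl*, whose groups did not overlap, and of *Tnf* as the neighbour of *Lta*, are shown for comparison (RefSeq, mm10, 5′ to 3′ on the strand of the gene, 250 bases before to 50 bases after the start). For *Tnfsf9*, whose groups also did not overlap in CPM, no promoter sequence was matched. Of all genes tested, 36.0% had groups that did not overlap. Capitals mark the NFAT core GGAAA or TTTCC, the AP-1 site TGANTCA and the TATA box sequence TATAAA, wherever they lie in the window.
*Tnf*, chr17:35201958-35202257, minus strand: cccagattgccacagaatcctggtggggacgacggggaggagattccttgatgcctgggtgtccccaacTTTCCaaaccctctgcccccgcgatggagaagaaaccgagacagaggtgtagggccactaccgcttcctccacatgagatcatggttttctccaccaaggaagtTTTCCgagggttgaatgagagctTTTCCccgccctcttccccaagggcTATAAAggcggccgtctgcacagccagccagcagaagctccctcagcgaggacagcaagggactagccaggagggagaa
*Lta*, chr17:35205302-35205601, minus strand: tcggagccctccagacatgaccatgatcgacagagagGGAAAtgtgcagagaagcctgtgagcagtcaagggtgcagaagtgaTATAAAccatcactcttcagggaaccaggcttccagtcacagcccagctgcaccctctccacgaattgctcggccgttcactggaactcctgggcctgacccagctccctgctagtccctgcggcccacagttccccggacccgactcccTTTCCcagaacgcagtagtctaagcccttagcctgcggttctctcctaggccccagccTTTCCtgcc
*Tnfsf14*, chr17:57194132-57194431, minus strand: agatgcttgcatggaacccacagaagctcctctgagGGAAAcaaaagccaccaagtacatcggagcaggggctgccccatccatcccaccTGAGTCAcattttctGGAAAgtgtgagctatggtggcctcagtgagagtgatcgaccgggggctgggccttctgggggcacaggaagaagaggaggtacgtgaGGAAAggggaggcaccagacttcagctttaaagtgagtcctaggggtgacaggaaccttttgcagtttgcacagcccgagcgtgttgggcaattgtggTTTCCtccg
*Fasl*, chr1:161788446-161788745, minus strand: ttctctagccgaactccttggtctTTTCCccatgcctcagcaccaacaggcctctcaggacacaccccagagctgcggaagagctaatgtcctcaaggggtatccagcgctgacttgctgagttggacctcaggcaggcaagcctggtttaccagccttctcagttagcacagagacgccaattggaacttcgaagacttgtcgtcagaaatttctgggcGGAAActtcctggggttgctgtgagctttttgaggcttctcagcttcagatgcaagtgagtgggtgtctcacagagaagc

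Promoter sequences were matched for 8 of the 10 ligands, all but *Tnfsf9* and *Cd40lg*. The NFAT core, searched on both strands, was present in all 8, with 4 matches in *Tnfsf14*, 3 each in *Tnf* and *Lta*, 2 in *Fasl* and 1 in each of the others. It occurs in 61.3% of 27025 promoters of the same length, 9.55% of which hold at least 3 matches. *Tnfsf14* was the only one of the 8 with the AP-1 site, 160 bases before the start, which 7.93% of promoters hold. The NF-κB consensus was matched only in *Ltb*, 87 bases before the start, by GGAAAGTCCC, which includes a match of the NFAT core, and 8.18% of promoters hold it. The TATA box sequence TATAAA on the strand of the gene was present in *Tnf* and *Lta* and in 8.88% of promoters. It began at -29 from the start site in *Tnf* but at -167 in *Lta*, so the 2 matches are not alike in position. Such matches describe these windows only.

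The mRNAs of the ligands also differ in AU-rich elements, repeats of ATTTA in the 3′ untranslated region that recruit decay factors and keep cytokine mRNAs short-lived. *Tnf* carried 8 copies of ATTTA and 5 of the longer TTATTTATT in 764 bases, a density of 10.5 ATTTA per kb that lies above 99.2% of the 12579 tested genes with a 3′ untranslated region (GENCODE). *Tnfsf9*, *Tnfsf11* and *Lta* followed with 7.91, 5.31 and 5.24 per kb. *Tnfsf14* and *Fasl* had 1 copy each (0.981 and 1.13 per kb, against a median of 1.26), and *Ltb* had 0 in 174 bases. TTATTTATT was found in *Tnf* and *Lta* alone among the 10 ligands and in 8.21% of the tested genes. The densest 30 bases of these 3′ untranslated regions are given with ATTTA in capitals, overlapping copies included.
*Tnf*: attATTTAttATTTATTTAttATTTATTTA
*Lta*: tATTTAtggagagaaaagttaagttATTTA

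Of 12 genes of AU-rich element and stem-loop mRNA decay, all were tested, 0 were called, 2 were higher and 10 lower with Tox, at a median log2 fold change of -0.22 against 0.0036 for all genes. *Khsrp*, *Zfp36l2* and *Zc3h12d* were the most abundant. *Zfp36*, which encodes tristetraprolin, the factor that binds the *Tnf* element, was at 21.8 and 9.72 CPM with empty vector and 9.25 and 9.19 CPM with Tox (log2 fold change -0.77, SE 0.39, edgeR adjusted p = 0.897). EV RV replicate 1 was the high library. Without it 7 of the 12 genes were higher in Tox RV cells and the median was 0.08. Without EV RV replicate 2, *Zfp36*, *Zfp36l1*, *Zfp36l2* and *Zc3h12d* were called as lower, as were 429 of 14408 genes (2.98%). That fit sets the Tox RV pair against EV RV replicate 1 alone and takes the spread from the Tox RV pair, on the assumption that the lone library varies alike.

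Of the 8 other ligands of the family, 5 were tested and 0 called, with 1 higher, 4 lower and a median log2 fold change of -0.30, which was 0.27 over 6 genes without EV RV replicate 1. *Tnfsf4* (OX40 ligand), the most abundant, was at 79.5 and 56.6 CPM with empty vector and 59.2 and 48.0 CPM with Tox (log2 fold change -0.34, SE 0.23). The groups overlapped. *Tnfsf13b* (BAFF) and *Cd70* were at a mean of 6.31 and 2.11 TPM. *Tnfsf12*, *Tnfsf18* and *Eda* had too few counts to be tested, with 0 to 19 counts in each library.

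Receptors of the ligands were measured in the same libraries. All 13 were tested and 0 called, with 5 higher, 8 lower and a median log2 fold change of -0.11, which was 0.34 without EV RV replicate 1. *Tnfrsf9*, which encodes 4-1BB, was the most abundant at 631 and 682 TPM with empty vector and 948 and 810.1 TPM with Tox, while its ligand *Tnfsf9* was the least abundant of the 10 ligands. The Tox RV pair lay above the EV RV pair, by a log2 fold change of 0.50 (SE 0.17, unadjusted p = 0.0302 and edgeR adjusted p = 0.897). *Ltbr*, the lymphotoxin-β receptor of stromal and myeloid cells, was at 0.150 to 0.640 TPM beside *Ltb* at 412 to 769.9 TPM. *Cd40*, a receptor of B cells and dendritic cells, was at 0.320 to 1.01 TPM.

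Other receptors were nearer to their ligands in level. *Fas* was at 48.6 to 62.8 TPM in the 4 libraries beside *Fasl* at 39.3 to 73.1 TPM, and *Tnfrsf10b*, the TRAIL receptor, at 26.1 to 41.0 TPM beside *Tnfsf10* at 32.4 to 48.0 TPM. *Tnfrsf1a*, the death-domain receptor of TNF and lymphotoxin-α, was at 13.3 and 7.62 TPM with empty vector and 16.7 and 14.6 TPM with Tox (log2 fold change 0.67, SE 0.28, edgeR adjusted p = 0.897). *Tnfrsf1b*, the receptor of T cells for TNF, was at 26.1 to 54.8 TPM. *Tnfrsf14* (HVEM), the receptor of LIGHT, was at 70.4 and 27.0 TPM with empty vector and 32.5 and 34.2 TPM with Tox. EV RV replicate 1 stood apart, and *Tnfrsf14* was called as lower only in the fit without EV RV replicate 2. *Tnfrsf11b*, the decoy receptor of RANKL, had 10 and 53 counts with empty vector and 10 and 0 with Tox. It was tested and counts among the lower receptors, but its fitted log2 value of -2.49 (SE 1.14, edgeR adjusted p = 0.897) rests on these few counts.

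**Figure D4:**
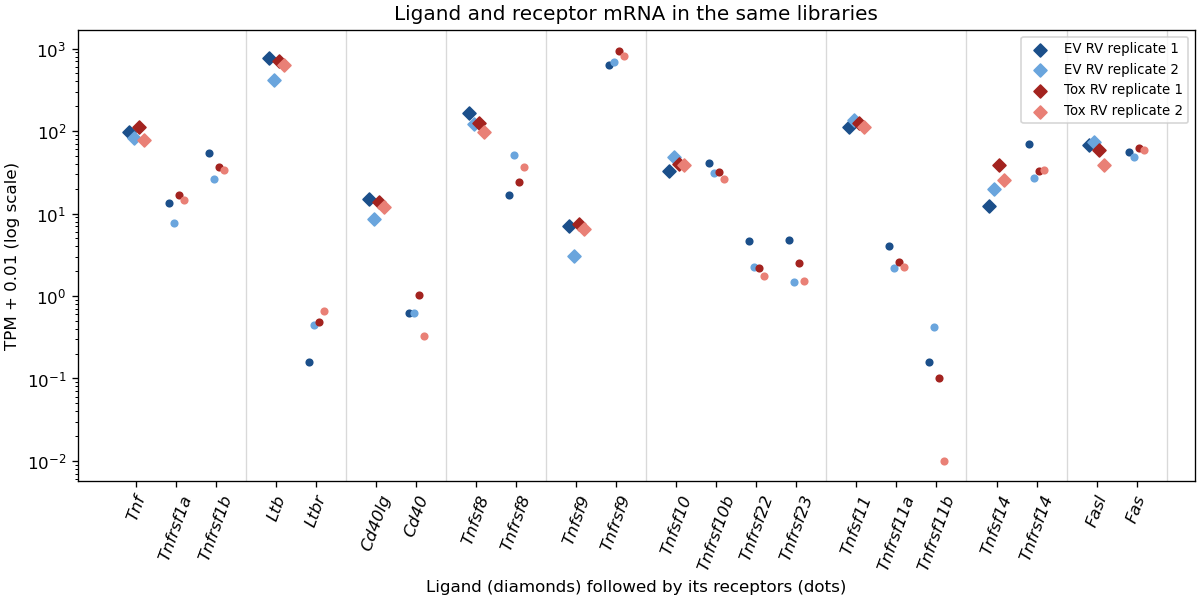
TPM (plus 0.01, log axis) of 9 ligands (diamonds, *Lta*, which shares receptors with *Tnf*, is left out) and of their receptors (dots) in the 4 libraries, EV RV in blue and Tox RV in red. *Tnfrsf9* lies far above *Tnfsf9*, *Ltbr* and *Cd40* far below their ligands, and *Fas* and *Tnfrsf10b* at the level of theirs.

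Downstream of the receptors, 15 signalling adaptors, such as *Traf1*, *Ripk1* and *Casp8*, were all tested and 0 called. Of these 9 were higher and 6 lower, with a median log2 fold change of 0.01. *Traf1*, the most abundant by mean TPM, was at 118 and 59.5 TPM with empty vector and 99.3 and 62.0 TPM with Tox, and the groups overlapped. *Birc2* (cIAP1), with the smallest unadjusted p, was at 75.4 and 68.8 CPM with empty vector and 104 and 89.8 CPM with Tox (log2 fold change 0.43, SE 0.17). *Birc3* (cIAP2) was at 113 and 105 CPM with empty vector and 85.9 and 83.5 CPM with Tox (log2 fold change -0.37, SE 0.16). The groups of both genes did not overlap, and the adjusted p of each was 0.897 in edgeR's quasi-likelihood test. Among the 15 adaptors 4 had the Tox RV pair above the EV RV pair and 2 below, where 36.0% of all genes tested did not overlap.

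Of 12 genes that shed ligands from the membrane or release them from granules, 0 were called, 11 were higher and 1 lower, with a median log2 fold change of 0.17. Without Tox RV replicate 1 that count was 6 of 12 and the median -0.00084. *Lamp1*, a granule membrane protein and the most abundant of them by mean TPM, was at 103 and 126 TPM with empty vector and 115 and 130.5 TPM with Tox, with overlap (log2 fold change 0.18, SE 0.20). *Rab27a*, a GTPase of granule release, was at 40.8 and 53.2 CPM with empty vector and 75.8 and 67.2 CPM with Tox (log2 fold change 0.60, SE 0.20, unadjusted p = 0.0256 and edgeR adjusted p = 0.897). *Adam17*, which cleaves TNF from the membrane, was at 67.7 and 72.3 CPM with empty vector and 86.5 and 81.8 CPM with Tox (log2 fold change 0.27, SE 0.16). *Adam10*, the sheddase of several other ligands, was at 154 and 142 CPM with empty vector and 129 and 127 CPM with Tox.

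Since these ligands respond to the T cell receptor, 20 TCR activation genes were examined beside them. None was called, 11 were higher and 9 lower, and the median log2 fold change was 0.17, which was -0.37 without Tox RV replicate 1. Their summed level was 3282 and 3619.9 CPM with empty vector and 3355 and 2797 CPM with Tox. Its largest parts were *Il2ra* (934 to 1322 CPM) and *Irf4* (652 to 1110 CPM), so it says little of the other genes. The EV RV replicates differed in both directions, with *Csf2* at 17.5 and 61.9 CPM and *Egr3* at 56.6 and 15.2 CPM. Of the 20 genes 3 had an unadjusted p below 0.05 in edgeR, 1 higher and 2 lower, against 3.62% of all genes (1.07% higher and 2.55% lower). The groups of each did not overlap. In the whole list 2 genes had the Tox RV pair above the EV RV pair and 3 below, where 36.0% of all genes did not overlap. *Nr4a2* was at 14.0 and 13.1 CPM with empty vector and 23.1 and 18.9 CPM with Tox. *Fosl2*, an AP-1 factor, was at 57.1 and 45.4 CPM with empty vector and 38.5 and 23.6 CPM with Tox (log2 fold change -0.72, SE 0.28). *Myc* was at 226 and 166 CPM with empty vector and 147 and 117 CPM with Tox (log2 fold change -0.57, SE 0.23). *Il2ra*, the IL-2 receptor α chain and the most abundant of the list by mean TPM, was at 436 and 490.4 TPM with empty vector and 379 and 336 TPM with Tox (log2 fold change -0.29, SE 0.17), so the Tox RV pair was the lower. The edgeR adjusted p of these 4 genes was 0.897. *Ifng* was at 10.9 and 106.6 CPM with empty vector and 96.0 and 47.4 CPM with Tox, lowest in EV RV replicate 1 as *Tnfsf14* was. The part of the response to restimulation in the ligand values was not tested.

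**Figure D5:**
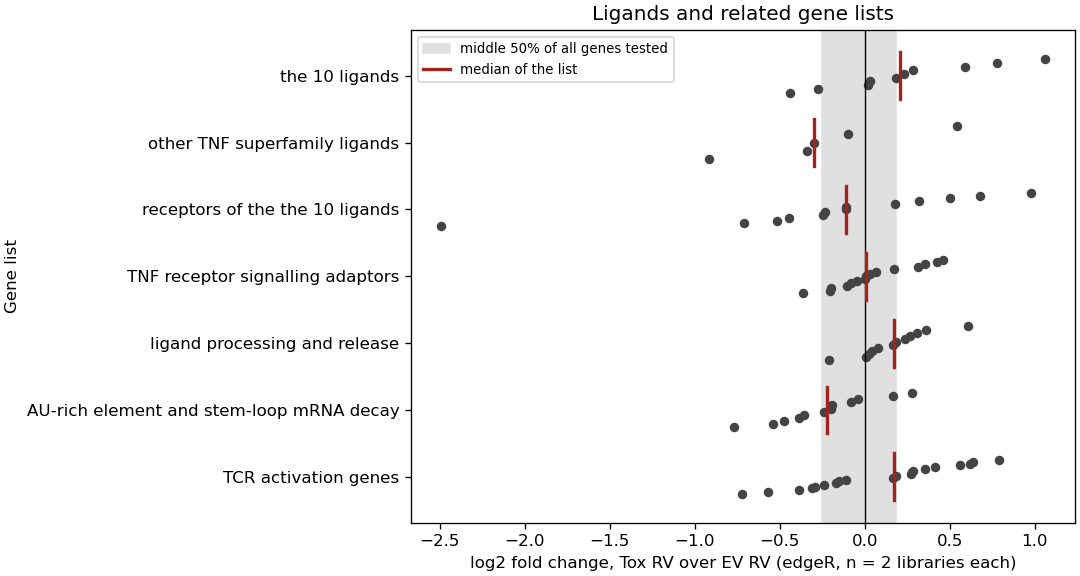
Fitted log2 fold change of every tested gene (dots) in the 10 ligands and 6 related lists, with the median of each list as a red line and the middle 50% of all genes tested shaded. The point farthest to the left among the receptors is *Tnfrsf11b*, which had 0 counts in Tox RV replicate 2.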

How the data were processed

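RNA-seq libraries of 2 EV RV and 2 Tox RV cultures were grouped by their sample titles. Read quality was examined by the authors in FastQC, and RSEM estimated gene abundance from Bowtie alignments (mm10), 1 library per file. Versions and use of strand were not given in the sources used here. The deposited expected counts are not normalized. The deposited TPM sum to 1000000 per library, so a larger *Rn45s* share of TPM lowers all other TPM of that library. That share was 3.48% and 1.41% with empty vector and 1.16% and 0.784% with Tox, below its share of counts. The deposited FPKM were used only for the order of levels. A further table of 4 columns for the whole series was not used.

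Expected counts were rounded and tested in R 4.3.3 with edgeR 4.0.16 (filterByExpr with a minimum count of 10, TMM, glmQLFit, glmQLFTest, two-sided, no replicate block), with adjustment over all genes. CPM are TMM-scaled. Standard errors come from the fold change and the F statistic. Alternatives were DESeq2 1.42.0 (named in the methods), limma 3.58.1 on log2(TPM + 1) or log2(TPM + 0.1), other scalings, no filter, the replicate block, removal of *Rn45s*, and leaving out each library. The fits were also run on simulated data, of which no outcome is reported here. Replicates differed by more than sampling noise (chi-square per degree of freedom 410.3 for EV RV and 75.1 for Tox RV). With 2 libraries against 2, p-values set each group difference against the spread between these libraries, which edgeR estimates partly from other genes.

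The 10 ligands and the lists were chosen with earlier results of these data known. Named were all ligands, the genomic neighbours of those on chromosome 17, and up to 4 genes of each list, the most abundant by mean TPM and the one with the smallest unadjusted p. Neighbours of the ligands on other chromosomes were not given. Other receptors, *Zfp36* relatives, *Birc3*, *Adam10*, *Adam17*, *Ifng*, *Fosl2*, *Myc*, NK cell markers and the ratios were chosen after their values were seen. So were *Irf4*, *Csf2* and *Egr3*.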

Additional observations from a re-analysis of the deposited data

How the results depend on the processing

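None of the 10 ligands passed an adjusted p of 0.05 under any of the 12 alternatives, and 108 of 120 fold changes kept their direction. That count pools refits of the same 4 libraries, where agreement in direction is largely built in, with fits that leave out 1 library. Over all genes, against 0 calls in the quasi-likelihood test (512 at an unadjusted p below 0.05), DESeq2 gave 22, the unfiltered fit 22, the replicate block 16, and leaving out 1 library 1 to 600. The single call without EV RV replicate 1 was *Tox*, and the 600 (4.16% of genes) were without EV RV replicate 2. The cause was not tested. Without 1 library in turn, 0 to 1 receptors, 0 to 4 decay genes and 0 to 1 TCR activation genes were called, all without EV RV replicate 2 (*Tnfrsf14*, *Zfp36*, *Zfp36l1*, *Zfp36l2*, *Zc3h12d* and *Ifng*).

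With 1 library left out, log2 fold changes ranged from -0.12 to 0.44 for *Tnf*, -0.068 to 0.75 for *Ltb*, -0.082 to 0.62 for *Cd40lg*, -0.26 to 0.39 for *Tnfsf10*, -0.16 to 0.22 for *Tnfsf11*, 0.50 to 1.01 for *Lta*, 0.73 to 1.48 for *Tnfsf14*, -0.77 to -0.17 for *Fasl*, and -0.48 to -0.085 for *Tnfsf8*. In limma on log2(TPM + 1), log2(TPM + 0.1) and log2(TPM + 1) without *Rn45s*, *Tnfsf10* was at -0.017, -0.016 and -0.038 and *Tnfsf11* at -0.056, -0.056 and -0.077. The median of the 10 ligands in these fits was 0.12, 0.13 and 0.098, with 6 of 10 higher in each. At an unadjusted p below 0.05 the ligands numbered 5 without EV RV replicate 1 (*Lta*, *Tnfsf14*, *Tnfsf9*, *Ltb* and *Cd40lg*), 3 without EV RV replicate 2 and 0 without Tox RV replicate 1, where 7.49%, 29.7% and 2.25% of all genes passed, so that 3 of 10 was near the share of all genes. Scaling by library totals moved the median of all genes to 0.12. Same-numbered libraries deviated together (r = 0.30 across 14143 genes), though nothing ties equal numbers to 1 mouse. The block gave 3 ligands at an unadjusted p below 0.05 (*Lta*, *Tnfsf14* and *Tnfsf9*) and 0 by adjusted p, with 8.71% of all genes at that unadjusted p against 3.62% without the block. Precision is limited by the spread of 2 libraries per group rather than by counts, which were at least 157 for every ligand.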

Other observations

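Genes of like pattern were sought for the 3 most abundant ligands among 8513 genes with a mean of at least 10 CPM, by the root mean square difference of centred log2 CPM over the 4 libraries. For *Ltb* they were *Ehd3* (0.0468) and *Klhl6* (0.0523), for *Tnfsf8* *D130020L05Rik* (0.0340) and *Utp23* (0.0373), and for *Tnfsf11* *Rmrp* (0.0205) and *Pomgnt1* (0.0256). *Ehd3* was at 24.3 and 13.6 CPM in EV RV and at 23.4 and 23.0 CPM in Tox RV libraries, low in EV RV replicate 2 as *Ltb* was. *Utp23*, at 105.6 and 81.7 CPM in EV RV and at 83.4 and 69.1 CPM in Tox RV libraries, was lowest in Tox RV replicate 2 as *Tnfsf8* was. With 4 libraries and 8513 candidates such closeness is a description only.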
